A study of Mus musculus with 35 samples.

Results

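Cholesterol synthesis and sterol handling were followed in 33 genes, of 55421 genes counted, in interscapular brown adipose tissue (iBAT) of cold-exposed mice. The members were taken by name, by their roles in the pathway, and were chosen with earlier results of these data known. They were 8 enzymes from acetyl-CoA to farnesyl diphosphate (with Ggps1, which branches off there) and 11 from squalene to cholesterol. The others were 4 proteins of sterol sensing and SREBP2 control, 4 of intracellular sterol transport, and 6 of esterification, efflux and the liver X receptors (LXR). All mice were C57BL/6J males aged 9 to 10 weeks, with no transgene or drug. Controls (n = 5) stayed at the colony temperature of 24 °C, and 5 mice each spent 6 hours or 1, 2, 3, 4 or 5 days at 6 °C. Mice in the cold were caged singly without nesting material, so that cold and this housing cannot be told apart. RNA of 1 fat pad per mouse was read as tags near the 3′ end of polyadenylated transcripts. Levels are given as CPM, the reads of a gene scaled to library size and adjusted by TMM factors over all 35 libraries. The libraries held 3846016 to 6047247 counts each, and 1 read was worth at most 0.26 CPM before the TMM adjustment. Summed brown adipocyte markers ran from 13451 to 17121 CPM in controls and reached 26127 CPM in the cold, where Ucp1, the uncoupling protein, rose from a mean of 1921 CPM to 7265 CPM at 6 hours. In whole tissue, fewer cells of a type and less RNA per cell cannot be told apart.

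Cholesterol is built from acetyl-CoA through mevalonate, farnesyl diphosphate, squalene and lanosterol. When sterols in the endoplasmic reticulum run low, SCAP carries the transcription factor SREBP2 (gene Srebf2) to the Golgi for cleavage, and the cleaved factor binds sterol response elements (SRE), often beside the factors NF-Y and Sp1, in promoters of the pathway. INSIG proteins hold SCAP back when sterols are plentiful. LXR, activated by oxidised sterols, in turn switches on exporters such as ABCA1 and ABCG1. Brown adipocytes are known chiefly for burning fatty acids for heat, and acetyl-CoA also feeds their fatty acid synthesis.

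To show what the promoters of these genes have in common, the 250 bases before the RefSeq start were searched on both strands in the 27 members with a RefSeq window (GRCm38.p6). The NF-Y box CCAAT was found in 22 of 27 (81.5%), against 37.5% of 27025 genes with a window and 40.2% of the 9032 of these that were detected in iBAT. The GC box GGGCGG was also found in 22 of 27, against 35.4% of all windows and 64.9% of those of detected genes. The E-box CACGTG was found in 6 (22.2%, against 6.86% of all and 10.0% of detected genes). The SRE letters TCACNCCAC were found once among the members, 137 bases before the start of Hmgcs1 (3.7%, against 1.22% of all windows). Without the last base (TCACNCCA, a pattern added after the first search) they were found in Hmgcs1, Msmo1 and Srebf2 (11.1%, against 4.2% of all and 3.91% of detected genes). The LXR repeat DR4 (a direct repeat spaced by 4 bases) was found in none of the 27 windows and in 0.0148% of all, which says only that these letters are not in these windows. Fdft1, Fdps, Npc1, Sqle, Abcg1 and Stard4 had no window.

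The promoters below carry these letters next to genes whose values follow. The sequences are RefSeq's, written 5′ to 3′ on the strand of the gene and ended before the start of both RefSeq and GENCODE. Capitals mark CCAAT or its reverse complement ATTGG, and the SRE or its shorter form. Abca1, the exporter whose level was lower at 6 hours and from 3 to 5 days, held no CCAAT and is shown for contrast. CCAAT was not confined to members that rose. Ggps1 (lower from 2 to 5 days) and Mylip (lower at 1, 4 and 5 days) held 3 matches each, and Mvk (lower at 6 hours) held 5. Hmgcs1 was chosen after the search, because its window holds the only full SRE.
Hmgcs1 (chr13:119690101-119690350, plus strand): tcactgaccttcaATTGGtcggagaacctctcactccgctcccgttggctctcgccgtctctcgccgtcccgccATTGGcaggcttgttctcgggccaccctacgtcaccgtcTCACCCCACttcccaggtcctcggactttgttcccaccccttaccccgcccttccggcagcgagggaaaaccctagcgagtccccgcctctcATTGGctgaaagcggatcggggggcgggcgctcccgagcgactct
Srebf2 (chr15:82147019-82147180, plus strand): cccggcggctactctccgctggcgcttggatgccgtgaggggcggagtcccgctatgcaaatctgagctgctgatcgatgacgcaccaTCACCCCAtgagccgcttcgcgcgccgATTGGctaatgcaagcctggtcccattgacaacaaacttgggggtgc
Insig1 (chr5:28071162-28071362, plus strand): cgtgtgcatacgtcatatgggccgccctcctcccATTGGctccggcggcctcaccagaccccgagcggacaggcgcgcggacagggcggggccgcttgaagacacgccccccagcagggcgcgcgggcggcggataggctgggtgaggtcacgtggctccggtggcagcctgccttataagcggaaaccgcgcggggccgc
Mvd (chr8:122443423-122443672, minus strand): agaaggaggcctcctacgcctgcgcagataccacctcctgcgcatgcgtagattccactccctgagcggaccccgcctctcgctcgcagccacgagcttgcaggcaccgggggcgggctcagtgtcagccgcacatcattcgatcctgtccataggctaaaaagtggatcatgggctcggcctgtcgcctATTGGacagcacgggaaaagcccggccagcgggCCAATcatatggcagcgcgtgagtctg
Nsdhl (chrX:72918271-72918520, plus strand): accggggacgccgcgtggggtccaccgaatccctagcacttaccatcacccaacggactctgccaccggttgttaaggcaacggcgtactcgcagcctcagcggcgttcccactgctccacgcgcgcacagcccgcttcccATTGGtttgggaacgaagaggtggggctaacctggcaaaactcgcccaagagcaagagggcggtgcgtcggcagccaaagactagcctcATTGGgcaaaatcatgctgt
Sc5d (chr9:42264301-42264550, minus strand): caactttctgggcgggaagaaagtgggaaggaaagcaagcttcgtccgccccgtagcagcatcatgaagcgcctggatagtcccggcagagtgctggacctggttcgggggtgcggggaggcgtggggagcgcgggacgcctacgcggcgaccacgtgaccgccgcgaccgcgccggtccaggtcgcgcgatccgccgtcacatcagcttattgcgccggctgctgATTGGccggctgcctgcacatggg
Abca1 (chr4:53159896-53160145, minus strand): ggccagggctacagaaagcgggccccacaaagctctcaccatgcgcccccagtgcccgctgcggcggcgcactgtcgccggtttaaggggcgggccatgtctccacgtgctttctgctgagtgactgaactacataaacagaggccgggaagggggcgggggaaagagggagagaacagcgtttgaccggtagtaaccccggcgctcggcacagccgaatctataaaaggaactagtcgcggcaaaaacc

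Each duration was compared with the controls to ask which sterol genes the cold changed, and when. A gene was called when the Benjamini-Hochberg adjusted p of edgeR's quasi-likelihood test, over all genes tested, was below 0.05. After 6 hours 7 of 28 tested members were higher and 6 lower, against 21.5% of all tested genes higher and 21.0% lower, so that the members moved about as often as other genes. From 1 day on, higher calls outnumbered lower ones by a wider margin. After 1 day 11 of 29 were higher and 6 lower (18.9% and 17.8% of all genes). Higher calls numbered 15 of 30 at 2 days, with 2 lower (16.4% and 14.7% of all genes), and 15 of 30 at 3 days, with 4 lower (18.3% and 15.5%). At 4 days 17 of 30 were higher and 5 lower (19.4% and 18.6%), and at 5 days 15 of 31 were higher and 5 lower (20.2% and 18.6%). The median log2 fold change of the tested members was -0.02 at 6 hours, 0.18 at 1 day, 0.66 at 2 days, 0.39 at 3 days, 0.53 at 4 days and 0.54 at 5 days, while that of all genes lay between -0.03 and -0.01 at every duration. The groups did not overlap in 7 of the 28 tested members at 6 hours (28.5% of all genes), 12 of 29 at 1 day (25.0%), 15 of 30 at 2 days (20.2%), 14 of 30 at 3 days (21.9%), 17 of 30 at 4 days (25.1%) and 17 of 31 at 5 days (24.6%). All 6 comparisons used the same 5 control mice. At 1 day 2 of 8 brown adipocyte markers were higher and 3 lower, and 5 of 6 adipose stromal markers were lower, with medians of -0.03 and -0.73, and their part in the members' values was not tested. Scaling by library size alone moved the median of all genes down, to -0.25 at the lowest (5 days). With this scaling 4 members were higher and 9 lower at 6 hours, beside 1342 higher and 3399 lower of 10593 genes. At 2 days 14 were higher and 6 lower, beside 931 higher and 2776 lower of 10629 genes.

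**Figure D1:**
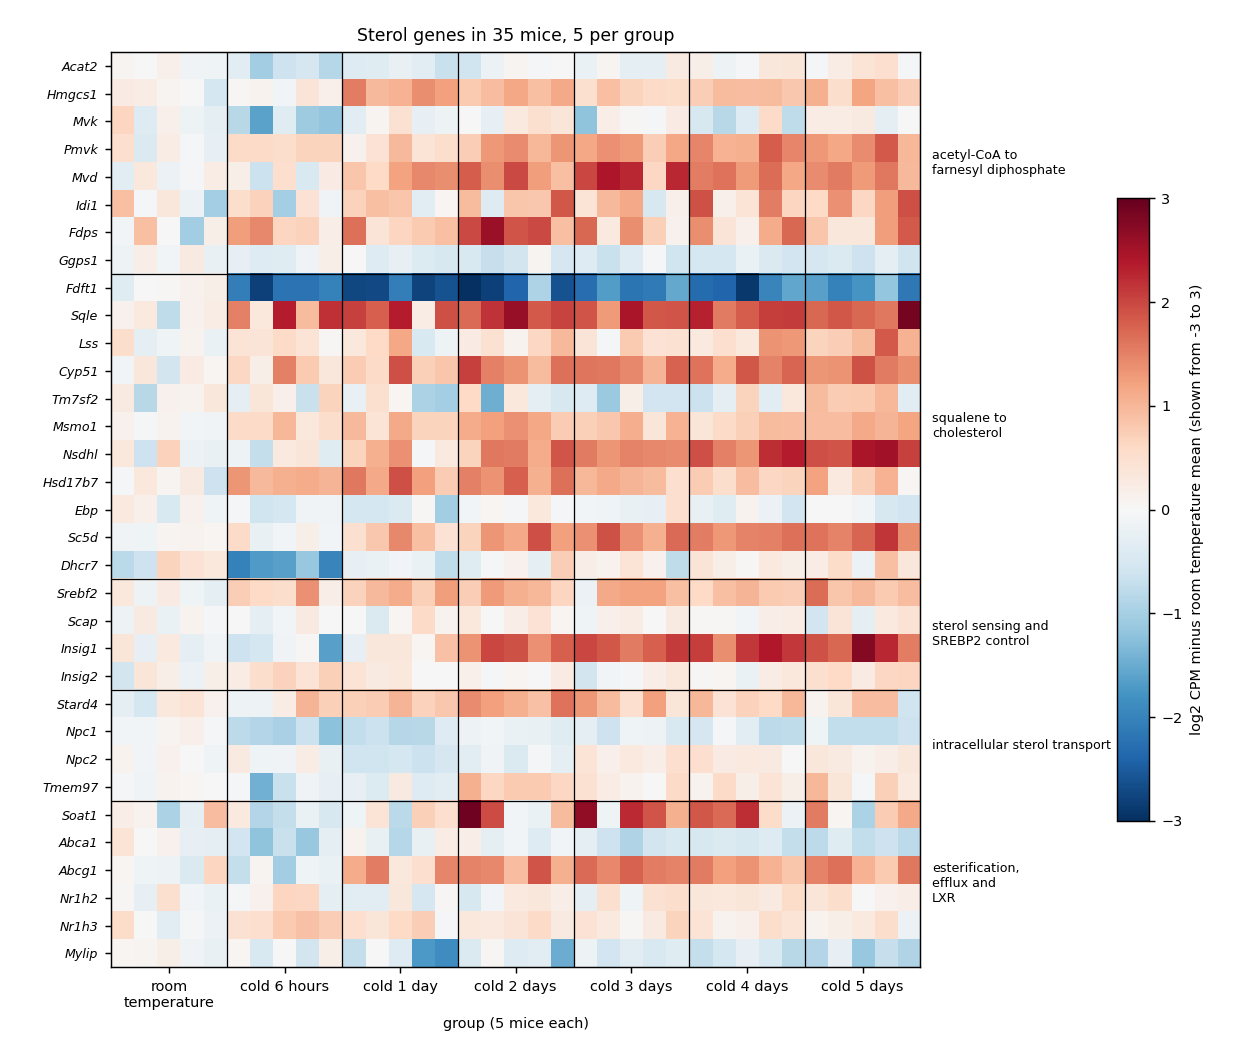
Level of the 33 sterol genes (rows, grouped by role) in each of 35 mice (columns, 5 per group), as log2 CPM minus the mean of the room temperature mice, with red higher and blue lower. Many synthesis enzymes and Insig1 turn red from 1 or 2 days on, while Fdft1 is blue in all 30 mice kept in the cold.

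12 members were higher at each of the 4 durations from 2 to 5 days: Hmgcs1, Pmvk, Mvd, Sqle, Cyp51, Msmo1, Nsdhl, Hsd17b7, Sc5d, Srebf2, Insig1 and Abcg1. Of these, 9 are enzymes of synthesis, Srebf2 and Insig1 belong to sterol sensing, and Abcg1 is an exporter. 5 members (Pmvk, Cyp51, Msmo1, Hsd17b7 and Srebf2) were higher at all 6 durations, and Fdft1 alone was lower at all 6. Ggps1, which draws farnesyl diphosphate off into geranylgeranyl diphosphate for protein prenylation, was lower at each duration from 2 to 5 days, with 27.5 ± 4.36 CPM in controls and 19.5 ± 2.04 CPM at 5 days (-0.51 ± 0.13, adjusted p = 0.00567). Its calls at 2 and 3 days were each lost in 6 of the 10 fits with 1 mouse removed. Exons of Ggps1 overlap those of Arid4b on the other strand, and the strand setting of the counting is not known here. Arid4b was called lower at the same 4 durations (-0.49, -0.36, -0.44 and -0.47). The part of this overlap in the Ggps1 result was not tested. Npc2 was the only member with calls in both directions. Scap was tested at all 6 durations and never called, with group means of 18.4 to 21.4 CPM. Idi1 and Fdps were too low to be tested, and Tm7sf2 passed the filter only at 5 days.

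The enzymes up to farnesyl diphosphate did not move together at first. Acat2, the cytosolic thiolase of the first step, stood at 154, 146, 162, 136 and 132 CPM in controls and at 115, 70.0, 93.9, 103 and 80.6 CPM after 6 hours. These groups did not overlap (log2 fold change -0.68 ± 0.12 SE, adjusted p = 0.000204). It was still lower at 1 day (-0.39 ± 0.10, adjusted p = 0.00673) and was not called later. Mvk, mevalonate kinase, fell by 1.11 ± 0.29 at 6 hours (adjusted p = 0.00465), from a mean of 6.68 ± 2.19 to 3.13 ± 1.15 CPM (SD, n = 5), and was not called at any later duration.

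Hmgcs1, the enzyme that makes HMG-CoA, was read at 116 to 198 CPM in controls and 160 to 219 CPM after 6 hours, which was no call (adjusted p = 0.601). After 1 day it stood at 490, 332, 347, 442 and 396 CPM, above every control (log2 fold change 1.23 ± 0.14, adjusted p = 6.00e-06). This was its highest group mean (402 ± 65.8 CPM), and the means from 2 to 5 days were 262 to 333 CPM, each above controls by 0.63 to 0.95 on the log2 scale.

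Mvd (chr8:122433601-122443422, minus strand), the decarboxylase that yields isopentenyl diphosphate, showed the same delay. Controls held 2.13, 3.50, 2.40, 2.64 and 3.28 CPM, and mice after 6 hours 3.15, 1.62, 4.04, 1.89 and 3.34 CPM, so that both groups covered the same range. After 3 days Mvd reached 12.2, 16.5, 14.8, 4.44 and 14.7 CPM (2.16 ± 0.31, adjusted p = 5.27e-05), and all 5 mice lay above all controls. At 5 days the range was 5.79 to 9.05 CPM (1.46 ± 0.24, adjusted p = 9.90e-05). These are low levels, of 11 to 18 reads per control library.

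Pmvk (chr3:89454541-89469013, plus strand), phosphomevalonate kinase, was called higher from 6 hours on. It stood at 25.4, 13.0, 21.0, 17.2 and 14.9 CPM in controls, at 25.8 to 28.4 CPM after 6 hours (0.56 ± 0.15, adjusted p = 0.00655) and at 50.0, 37.0, 37.8, 63.3 and 49.9 CPM after 4 days (1.37 ± 0.18, adjusted p = 1.59e-05). The call at 6 hours was lost under scaling by library size alone, and the call at 1 day (0.50 ± 0.18, adjusted p = 0.0449) was lost in 6 of the 10 fits with 1 mouse removed. Idi1, the isomerase, gave 0 to 15 reads per library and Fdps, farnesyl diphosphate synthase, 0 to 20. Mean Fdps was 0.508 ± 0.423 CPM in controls and 2.86 ± 1.24 CPM at 2 days (p = 0.0159 by a two-sided exact permutation test, which can give no p below 0.00794), unadjusted, and this did not pass 0.05 when adjusted over 25 such tests. Counts of Idi1 and Fdps may be reduced where reads also match near-identical copies. This was not tested, and the levels of both genes are uncertain.

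**Figure D2:**
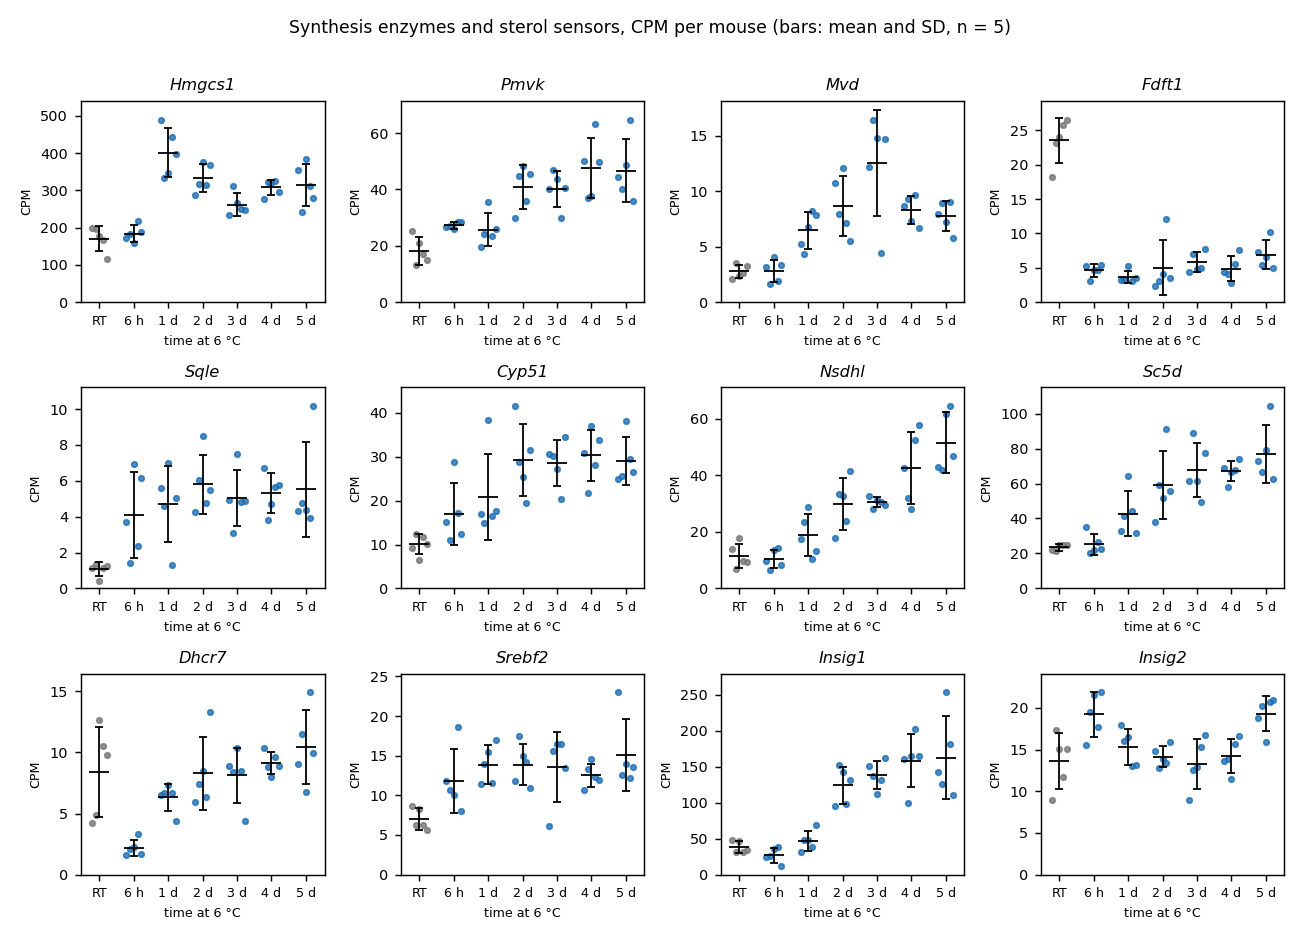
Level in CPM (vertical axes, from 0) of 12 synthesis and sensing genes against time at 6 °C, with 1 point per mouse (grey, room temperature, blue, cold) and the mean and SD of 5 mice as bars. Fdft1 drops within 6 hours and stays low, Dhcr7 is low at 6 hours only, and Insig1 stays near control levels until 1 day and is above them from 2 days on.

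The largest change of any member was a loss. Fdft1 (chr14:63145150-63179578, minus strand), squalene synthase, which commits farnesyl diphosphate to sterols, stood at 18.2, 23.2, 24.0, 25.7 and 26.6 CPM in controls. After 6 hours it stood at 5.25, 3.01, 4.71, 4.73 and 5.39 CPM (-2.36 ± 0.17, adjusted p = 1.02e-08), a 5.14-fold lower level, and after 1 day at 3.08 to 5.21 CPM (-2.68 ± 0.18, adjusted p = 2.75e-08). It remained lower at 5 days, with 7.32, 5.44, 6.55, 10.2 and 4.99 CPM (-1.77 ± 0.19, adjusted p = 9.15e-07). The highest of all 30 mice in the cold, at 12.1 CPM after 2 days, was below the lowest control. The sources used here do not give the strand setting of the counting, and exons of Fdft1 overlap those of Ctsb on the other strand. Ctsb, a lysosomal protease, was lower at 6 hours (-0.36) and higher at 3, 4 and 5 days (0.36, 0.35 and 0.51), with group means of 263 to 474 CPM, while Fdft1 was lower at each of these. The part of this overlap in the Fdft1 result was not tested.

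Sqle (chr15:59315077-59331192, plus strand), squalene epoxidase, lies directly after Fdft1 in the pathway and moved the other way. Controls held 1.16, 1.36, 0.436, 1.15 and 1.27 CPM, which is 2 to 7 reads per library. After 2 days the level was 4.24, 6.05, 8.47, 4.74 and 5.49 CPM (2.38 ± 0.32, adjusted p = 4.89e-05) and after 5 days 4.31, 4.79, 4.37, 3.94 and 10.2 CPM (2.31 ± 0.37, adjusted p = 9.16e-05). No mouse from 2 to 5 days overlapped the controls. At 6 hours (1.39 to 6.95 CPM) and 1 day (1.28 to 7.0 CPM) the gene did not pass the filter on low counts. Exact two-sided permutation tests there gave p = 0.00794, the smallest possible, and p = 0.0159, unadjusted. Neither passed 0.05 once adjusted over the 25 exact tests of low members, so no call was made.

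At each duration more of the 11 genes from squalene synthesis to cholesterol were called higher than lower, with the smallest margin at 6 hours. Of these genes, 3 of 9 tested were higher and 2 lower at 6 hours (21.5% and 21.0% of all genes). At 1 day 5 of 9 were higher and 2 lower (18.9% and 17.8% of all genes). At 2 and at 3 days 6 of 10 were higher and 1 lower (all genes, 16.4% and 14.7%, then 18.3% and 15.5%). At 4 days 7 of 10 were higher and 1 lower (19.4% and 18.6%), and at 5 days 7 of 11 and 1 (20.2% and 18.6%). Lss, lanosterol synthase, was late. It rose from 3.73 ± 1.02 CPM to 8.39 ± 3.33 CPM at 5 days (1.16 ± 0.27, adjusted p = 0.00254), and its call at 4 days was lost without cold 4 days replicates 4 or 5 or room temperature replicates 2 or 5 (0.70 to 1.01 over all 10 such fits).

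Cyp51 (chr5:4081145-4104746, minus strand), the lanosterol demethylase, stood at 9.29, 12.5, 6.55, 11.7 and 10.2 CPM in controls and at 31.0, 21.8, 37.1, 28.1 and 33.8 CPM after 4 days (1.58 ± 0.17, adjusted p = 3.15e-06), with no overlap. At 6 hours it was 11.1 to 28.9 CPM (0.73 ± 0.23, adjusted p = 0.0184), a call that was lost without cold 6 hours replicate 3, where it fell to 0.46. Its exons overlap those of Akap9 on the other strand, which was lower at both durations (-0.42 and -0.56). The part of this overlap was not tested.

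Msmo1, Nsdhl and Hsd17b7 together remove the methyl groups of lanosterol, and they differed in timing. Hsd17b7 (chr1:169949535-169969241, minus strand) was already up after 6 hours, with 17.1, 13.4, 14.3, 14.9 and 13.7 CPM against 6.39, 8.37, 6.98, 8.08 and 4.19 CPM in controls (1.09 ± 0.18, adjusted p = 0.000105). It was highest at 2 days (19.3 ± 3.72 CPM, 1.5 ± 0.19, adjusted p = 3.20e-05) and lower again at 5 days (11.2 ± 3.82 CPM). The 5-day call (0.71 ± 0.24, adjusted p = 0.0264) was lost without cold 5 days replicates 1 or 4 or room temperature replicate 5, with 0.57 as the lowest value of such fits.

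Nsdhl (chrX:72918557-72958514, plus strand) went the other way in time. After 6 hours it stood at 9.72, 6.49, 13.5, 14.2 and 8.36 CPM, overlapping the control range of 7.01 to 17.9 CPM. After 5 days it stood at 43.1, 41.8, 61.6, 64.6 and 46.7 CPM, above all controls (2.17 ± 0.20, adjusted p = 2.26e-07), a 4.5-fold higher level. Msmo1 rose from 9.76 ± 0.739 CPM in controls to 15.1 ± 2.86 CPM at 6 hours (0.61 ± 0.15, adjusted p = 0.00357) and 22.0 ± 3.35 CPM at 2 days (1.17 ± 0.14, adjusted p = 1.75e-05).

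The last steps diverged as well. Sc5d (chr9:42251595-42264256, minus strand), a sterol desaturase, stood at 21.7, 21.2, 24.9, 25.1 and 24.6 CPM in controls and at 20.2 to 34.9 CPM after 6 hours, which was no call (adjusted p = 0.701). It then rose to 72.8, 66.4, 79.3, 105 and 62.5 CPM at 5 days (1.71 ± 0.14, adjusted p = 4.47e-08), without overlap. Dhcr7 (chr7:143823145-143848410, plus strand), the reductase that completes cholesterol, was lower at 6 hours alone. It stood at 4.26, 4.87, 12.7, 10.6 and 9.83 CPM in controls and at 1.58, 2.09, 2.24, 3.31 and 1.67 CPM after 6 hours (-1.97 ± 0.33, adjusted p = 0.000143). From 1 day on its group means were 6.31 to 10.5 CPM and no call was made. Ebp, the sterol isomerase, was called only at 1 day (-0.49 ± 0.18, adjusted p = 0.0398), and that call was lost in 7 of 10 fits with 1 mouse removed.

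**Figure D3:**
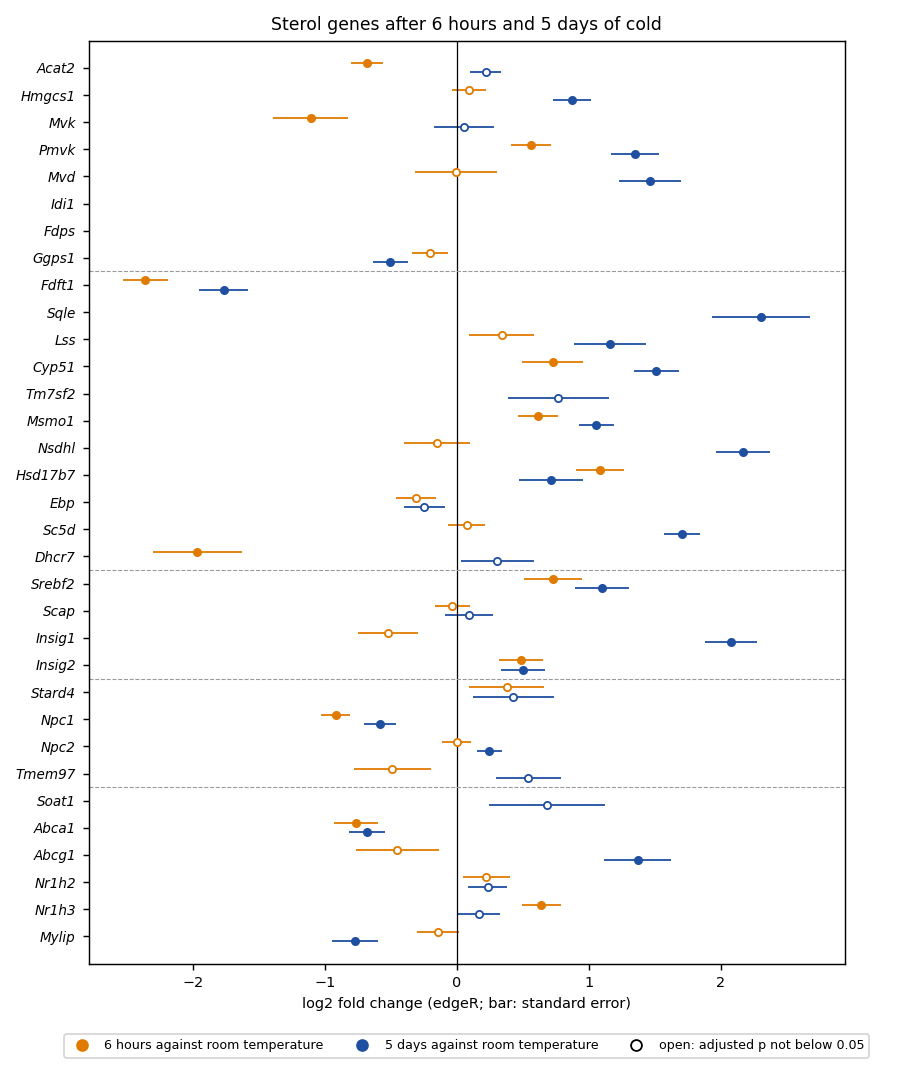
Log2 fold change (horizontal axis, bars are SE) of each sterol gene after 6 hours (orange) and 5 days (blue) against room temperature, 5 mice per group, with open points for no call and no point where the gene was not tested. Nsdhl, Sc5d, Insig1 and Mvd are near or below 0 at 6 hours and at 1.46 or more at 5 days, whereas Fdft1 lies below -1.7 at both.

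Among the sensors, Insig1 and Insig2 followed different courses. Insig1 (chr5:28071363-28078662, plus strand), itself a known target of SREBP, stood at 48.4, 31.5, 46.3, 30.7 and 34.8 CPM in controls and at 24.4, 25.9, 35.0, 38.5 and 11.9 CPM after 6 hours (no call, adjusted p = 0.0708). After 2 days it was 96.0, 153, 143, 98.2 and 131 CPM (1.69 ± 0.17, adjusted p = 2.25e-06), and after 5 days 142, 125, 254, 181 and 110 CPM (2.08 ± 0.20, adjusted p = 3.01e-07). Every mouse from 2 days on lay above every control. Insig2 (chr1:121304353-121332589, minus strand) stood at 8.91, 17.3, 15.1, 11.7 and 15.1 CPM in controls. It was called at 6 hours (15.5 to 21.9 CPM, 0.49 ± 0.17, adjusted p = 0.0256) and at 5 days (15.9 to 21.0 CPM, 0.50 ± 0.17, adjusted p = 0.0244), and its means between were 13.3 to 15.3 CPM. Both calls were lost without room temperature replicate 1 or 4, the first also without cold 6 hours replicate 3 or 5 (lowest values 0.37 and 0.38), and both under scaling by library size alone. Within each mouse the log2 ratio of Insig1 to Insig2 averaged 1.47 ± 0.579 (SD, n = 5) in controls, 0.397 ± 0.746 at 6 hours and 3.41 ± 0.387 at 4 days. This pair was chosen after the values were seen, so its ratio is given as a description only.

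Srebf2 (chr15:82147181-82205379, plus strand), the gene of SREBP2, was higher throughout. It stood at 8.71, 6.23, 8.29, 6.27 and 5.64 CPM in controls, at 11.8, 10.7, 10.1, 18.7 and 7.99 CPM after 6 hours (0.73 ± 0.22, adjusted p = 0.0135) and at 23.0, 12.6, 14.0, 12.2 and 13.6 CPM after 5 days (1.1 ± 0.21, adjusted p = 0.000394). The 5-day mice did not overlap the controls, whereas the lowest mouse at 6 hours did. So Srebf2 was already higher at 6 hours, as were the enzymes Pmvk, Cyp51, Msmo1 and Hsd17b7. Insig1, Hmgcs1, Mvd, Nsdhl and Sc5d were not called there, and Acat2, Mvk, Fdft1 and Dhcr7 were lower.

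The transport genes did not share a direction. Npc1, the lysosomal membrane protein that exports cholesterol, fell within 6 hours from 77.4, 77.9, 86.9, 91.6 and 79.3 CPM to 47.8, 44.7, 41.9, 52.7 and 34.7 CPM (-0.92 ± 0.11, adjusted p = 4.57e-06), without overlap. It was still lower at 1 day (-0.69, adjusted p = 0.000112) and was not called at 2 days (71.3 ± 5.16 CPM). Npc1 was lower again at 3 days (-0.31), 4 days (-0.46) and 5 days (55.3 ± 11.1 CPM, -0.58 ± 0.12, adjusted p = 0.00107). This 3-day call was lost in 7 of 10 fits with 1 mouse removed. Exons of Npc1 overlap those of Rmc1 on the other strand. Rmc1 was called lower at every duration too (8.39 to 4.53 CPM at 6 hours), and the part of this overlap was not tested. Npc2, the soluble partner that hands cholesterol to Npc1, was not called at 6 hours (adjusted p = 0.992). It was lower at 1 day, at 207 to 228 CPM against 296 to 354 CPM in controls (-0.58 ± 0.09, adjusted p = 0.000103). At 3, 4 and 5 days it was higher by 0.33, 0.27 and 0.25 on the log2 scale, calls that were all lost under scaling by library size alone. The call at 3 days was also lost without room temperature replicate 5, and those at 4 and 5 days were each lost in 6 of 10 fits with 1 mouse removed. Stard4, a cytosolic sterol carrier, rose from 4.28 ± 1.24 CPM to 10.5 ± 2.22 CPM at 2 days (1.28 ± 0.23, adjusted p = 0.000626) and was not called at 5 days. Tmem97, a sterol-responsive membrane protein, was higher only at 2 days (3.82 ± 0.248 to 6.86 ± 0.989 CPM, 0.84 ± 0.20, adjusted p = 0.00513).

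The 2 exporters separated. Abca1 (chr4:53030787-53159895, minus strand) loads cholesterol onto lipid-free apolipoprotein, and Abcg1 (chr17:31057675-31117988, plus strand) acts on formed particles and within cells. Abca1 stood at 94.7, 70.7, 78.3, 60.2 and 58.2 CPM in controls and at 47.8, 30.8, 45.1, 32.4 and 59.4 CPM after 6 hours (-0.76 ± 0.17, adjusted p = 0.0014). It was not called at 1 and 2 days and was lower again after 5 days, at 41.1, 55.7, 42.4, 46.1 and 40.9 CPM (-0.68 ± 0.14, adjusted p = 0.000666), below every control. Abcg1 stood at 3.87, 3.31, 3.27, 2.64 and 6.00 CPM in controls and at 1.57 to 3.94 CPM after 6 hours (no call). It was called at 1 day (1.08 ± 0.29, adjusted p = 0.00854). After 3 days it reached 12.9, 10.7, 13.6, 11.4 and 11.1 CPM (1.65 ± 0.22, adjusted p = 2.60e-05), above every control, and it stayed higher at 5 days (1.37 ± 0.25, adjusted p = 0.000367). Within each mouse the log2 ratio of Abcg1 to Abca1 averaged -4.13 ± 0.531 in controls and -1.98 ± 0.294 at 3 days, a pair that was again chosen after the values were seen and is given as a description. Of the LXR genes, Nr1h3 (LXRα) was higher at 6 hours (30.7 ± 8.02 to 48.6 ± 6.02 CPM, 0.64 ± 0.15, adjusted p = 0.00202) and not later. Nr1h2 (LXRβ) was called at 4 days alone (0.35 ± 0.13, adjusted p = 0.0467), a call lost in 7 of 10 fits with 1 mouse removed. Mylip, an LXR target that marks lipoprotein receptors for degradation, was lower at 5 days (15.4 ± 1.74 to 9.01 ± 2.32 CPM, -0.77 ± 0.18, adjusted p = 0.00203). It was also called lower at 1 day (-0.77, adjusted p = 0.0353) and at 4 days (-0.56, adjusted p = 0.00775). The 1-day call was lost in 7 of 10 fits with 1 mouse removed, and the 4-day call with all 35 mice in one fit.

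**Figure D4:**
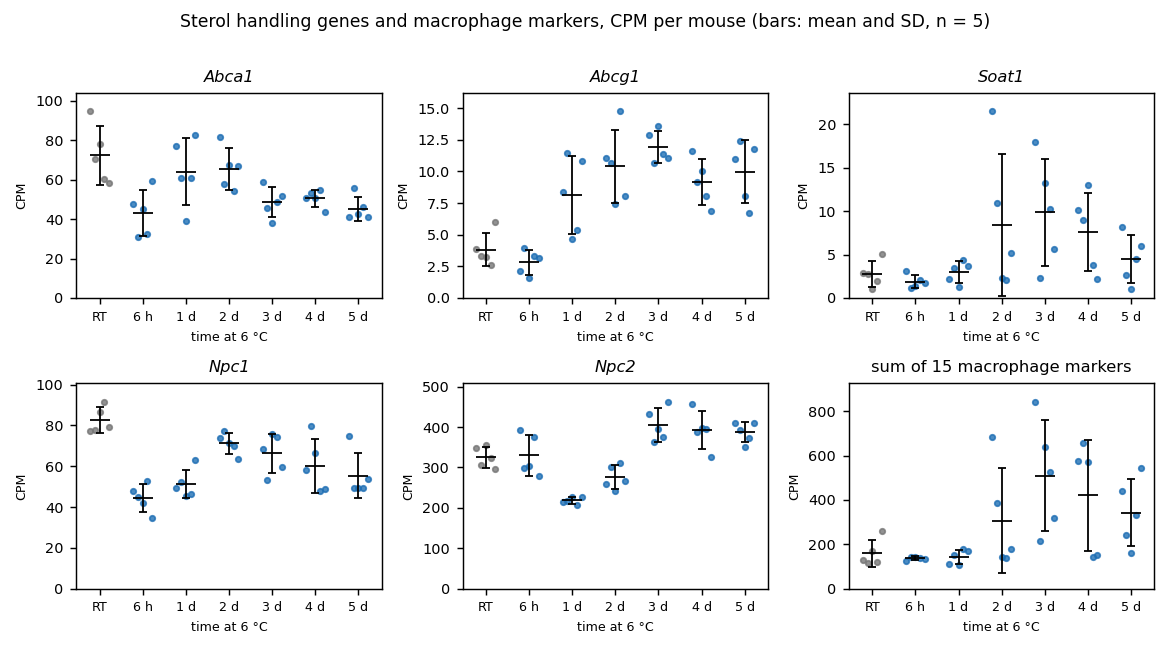
Level in CPM (vertical axes, from 0) of 5 sterol handling genes and of the sum of 15 macrophage markers against time at 6 °C, with 1 point per mouse (grey, room temperature, blue, cold) and the mean and SD of 5 mice. Abca1 is lower at 6 hours and from 3 days on, Abcg1 is higher from 1 day on, and Soat1 and the macrophage markers spread widely between mice from 2 days on.

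Soat1 (chr1:156424525-156474331, minus strand), which esterifies cholesterol for storage, varied widely between mice from 2 days on. It stood at 2.90, 2.73, 1.09, 1.98 and 5.10 CPM in controls, at 21.5, 10.9, 2.34, 2.11 and 5.20 CPM after 2 days and at 18.0, 2.26, 13.2, 10.2 and 5.67 CPM after 3 days (1.83 ± 0.45, adjusted p = 0.00485). Some mice at each of these durations stayed within the control range. The call at 2 days (1.63 ± 0.56, adjusted p = 0.036) was lost in 6 of 10 fits with 1 mouse removed, down to 0.86 without cold 2 days replicate 1, the highest mouse, and it was also lost in DESeq2 and with scaling by library size alone. The call at 4 days (1.45 ± 0.44, adjusted p = 0.0148) was lost without cold 4 days replicate 3. Markers of macrophages, which also store and export sterol, moved with it. The 15 markers summed to 114 to 262 CPM in controls, 140 to 686 CPM at 2 days, 217 to 842 CPM at 3 days, 143 to 659 CPM at 4 days and 159 to 542 CPM at 5 days, and none was at 0 in all 5 mice of a group. Of the markers tested, 4 of 12 were higher at 2 days (16.4% of all genes), 8 of 14 at 3 days (18.3%), 7 of 13 at 4 days (19.4%) and 6 of 13 at 5 days (20.2%), and 1 was lower at each.

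How far mice of the same group differed together was asked with a fit of every detected gene on the group and the log2 marker sum, over all 35 mice. This fit was added after the values had been seen. Soat1 rose by 1.18 on the log2 scale for each doubling of the marker sum (edgeR, adjusted p over 12062 genes = 1.97e-10), and by 1.14 to 1.29 in each of the 35 fits that left out 1 mouse. Npc1 rose by 0.17 (adjusted p = 0.0106). Acat2 fell by 0.22 (adjusted p = 0.000509) and Fdft1 fell by 0.37 (adjusted p = 0.0151), the latter a call that was lost without cold 2 days replicate 1 (-0.27). Mvk (-0.30, adjusted p = 0.0425) and Sc5d (-0.20, adjusted p = 0.0482) were called too, but these calls were lost in 16 and 23 of the 35 such fits. In all, 2 of 32 tested members were associated positively and 4 negatively, against 6.84% and 6.00% of all genes. For Abcg1 the slope was 0.20 (adjusted p = 0.156), and Npc2 was not called (0.04, adjusted p = 0.546). The part of macrophages in the changes of Abcg1 and Npc2 with cold was not tested.

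The same fit was made on Fasn, the fatty acid synthase, which varied from 431 to 3357 CPM among controls. Positive associations were called for 4 of 32 members, against 2.29% of all genes. They were Sc5d (0.30 per doubling of Fasn, adjusted p over 12076 genes = 0.00137), Nsdhl (0.39, adjusted p = 0.00229), Pmvk (0.24, adjusted p = 0.0167) and Acat2 (0.18, adjusted p = 0.0229). The call of Acat2 was lost without cold 2 days replicate 1 (slope 0.15 at the lowest) and that of Pmvk without that mouse or cold 1 day replicate 3 (0.22 at the lowest). Within groups, Pearson's r with Fasn was 0.66 for Sc5d (Spearman's rho 0.68, permutation p = 9e-05, r = 0.68 without the 2 mice farthest from the median) and 0.66 for Nsdhl (rho 0.65, permutation p = 0.00045, r = 0.60). Hmgcs1 (r = 0.04), Srebf2 (r = 0.09) and Cyp51 (r = 0.08) had little relation to Fasn between mice, with permutation p = 0.848, 0.61 and 0.703. Those r were computed for 28 members against each of the 2 measures.

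**Figure D5:**
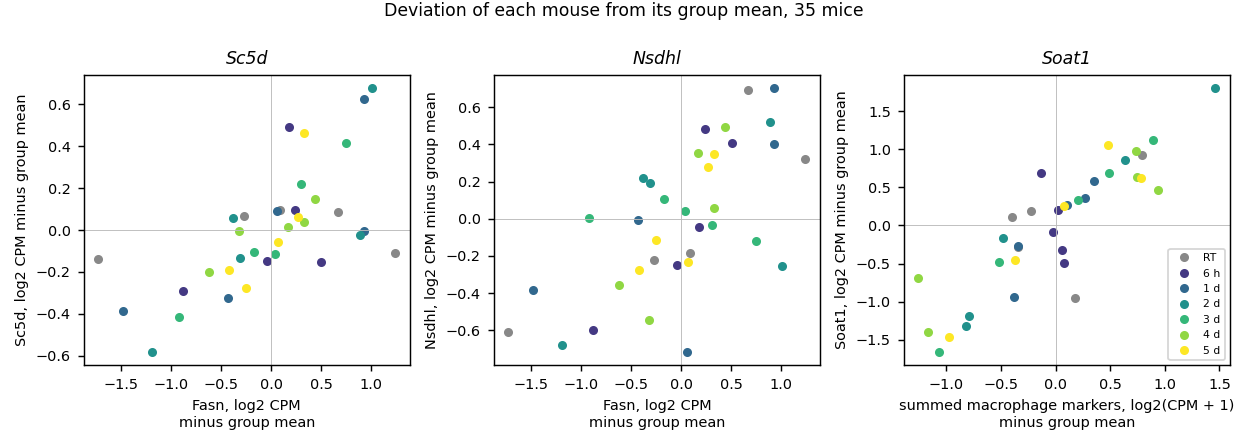
Deviation of each mouse from the mean of its own group, in log2 units, for Sc5d and Nsdhl against Fasn and for Soat1 against the summed macrophage markers, with 35 mice coloured by group. Sc5d and Nsdhl are higher in mice with more Fasn than others of their group, and Soat1 is higher in mice with more macrophage marker RNA.

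Durations in the cold were also compared with each other. From 6 hours to 1 day 9 of 30 tested members rose and 1 fell, against 9.19% and 7.75% of all genes, and 6 did not overlap (12.1% of all genes). The rises were in Hmgcs1, Mvk, Mvd, Nsdhl, Sc5d, Dhcr7, Insig1, Abca1 and Abcg1, and ranged from 0.58 for Abca1 to 1.54 ± 0.27 for Dhcr7 (adjusted p = 0.0008). Those of Nsdhl, Insig1 and Abca1 were lost in 5, 6 and 8 of the 10 fits with 1 mouse removed, and that of Mvk without cold 1 day replicate 3. Npc2 fell by 0.59. From 6 hours to 5 days 15 of 31 members were higher and 2 lower, against 19.0% and 16.9% of all genes, and 12 did not overlap (23.5% of all genes). The largest rises were in Insig1 (2.605 ± 0.24, adjusted p = 5.15e-08), Nsdhl (2.32 ± 0.19, adjusted p = 7.33e-09) and Dhcr7 (2.27 ± 0.28, adjusted p = 2.33e-06), and 11 of the 17 synthesis enzymes tested were higher. Nr1h3 and Mylip were lower. The calls of Msmo1 and Soat1 were lost in 4 and 5 of the 10 fits with 1 mouse removed, that of Lss without cold 5 days replicate 4 (0.55), and that of Mylip without cold 5 days replicate 3 or cold 6 hours replicate 5. Pmvk was not called between 6 hours and 1 day (adjusted p = 0.78), and Srebf2 was called in neither comparison (adjusted p = 0.457 and 0.204).

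Outside the members, 51 other sterol genes were listed, of which 44 were tested against controls at each duration. They moved in both directions, with 10 higher and 15 lower at 6 hours and 12 higher and 13 lower at 5 days (all genes, 21.5% and 21.0% at 6 hours, 20.2% and 18.6% at 5 days), and their median log2 fold change was -0.14 and 0.13. Among 8 genes of SREBP processing and sterol-regulated degradation, Srebf1, the gene of SREBP1, fell by 1.80 ± 0.14 at 6 hours (66.1 ± 8.15 to 19.2 ± 4.04 CPM, adjusted p = 2.85e-08), the opposite direction to Srebf2 there, and Mbtps2, a protease of SREBP, fell by 0.81, a call lost in 7 of 18 alternative fits. Faf2 rose by 0.48 at 6 hours. Among 13 genes of uptake and transfer, Vldlr, a lipoprotein receptor, fell by 1.505 and Gramd1c fell by 1.55 at 6 hours (0 to 10 reads per library, a call lost in 3 of 18 such fits), while Stard5, a sterol carrier, rose by 1.59 ± 0.14 at 6 hours (9.92 ± 2.10 to 30.1 ± 2.88 CPM, adjusted p = 1.33e-07) and Lipa, the lysosomal ester hydrolase, by 1.20 at 5 days. Of 6 genes of esters and efflux, 3 were tested. Nceh1, which hydrolyses cholesteryl esters, rose by 1.84 at 3 days, Pltp fell by 0.85 at 1 day, and Cav1 rose by 0.76 at 6 hours and was lower by 5 days (-0.56). Cyp27a1, the sterol hydroxylase and the only tested gene of 5 for oxysterols, fell by 0.95 at 1 day. In the isoprenoid branch (11 genes) Pdss1, which makes the side chain of coenzyme Q, rose by 1.62 at 1 day and Rabggtb by 1.05 at 6 hours, while Fntb fell by 1.00 at 2 days (lost in 4 of 18) and Dhdds fell by 0.66 at 5 days. Among 8 further enzymes and electron donors Aacs, which feeds ketone bodies into the pathway, fell by 1.83 at 6 hours and was higher at 5 days (1.02), Erg28 rose by 0.71 at 2 days, and Ebpl fell by 1.00 at 4 days.

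For comparison, 12 genes of fatty acid synthesis were read in the same fits, and were all tested. At 6 hours 2 were higher and 7 lower (21.5% and 21.0% of all genes), with a median of -0.47, and at 5 days 8 were higher (20.2% of all genes), with a median of 0.91. Acly, which makes acetyl-CoA for both pathways, fell by 1.69 at 6 hours and was higher at 5 days (2.11), Thrsp fell by 1.60 at 6 hours, and Elovl6 rose by 2.16 at 5 days. Of the 19 sterol synthesis enzymes, 4 of 15 tested were higher and 4 lower at 6 hours, with a median of -0.01. At 5 days 10 of 17 were higher and 2 lower (18.6% of all genes lower), with a median of 0.88. The branch enzyme Ggps1 is counted among them and was lower at 5 days, as was Fdft1. The difference between the lists was not tested.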

How the data were processed

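RNA of 1 iBAT pad from each of 35 mice was sequenced as 3′ tags (QuantSeq). The authors deposited 1 table of raw counts per gene, made with STAR 2.6.1d and HTSeq 0.11.2 per the labels. The strand setting of the counting is not given in the sources used here. Genes were named from GENCODE identifiers, and 267 identifiers had no symbol. Mitochondrial genes took 40.2% of all counts and Gm42418 took 11.6%. No gene's level is given per length, so levels are compared between mice and not between genes.

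Groups of 5 mice were compared in separate fits with edgeR 4.0.16 (R 4.3.3): TMM scaling, filterByExpr and the quasi-likelihood test, with p-values adjusted (Benjamini-Hochberg) across the tested genes. SE is the size of the log2 fold change divided by the square root of F. CPM values were scaled by TMM over all 35 libraries (prior count 2 on the log2 scale). In simulated counts of the 6-hour comparison, edgeR recovered 164 of 167 changed genes with 6 false calls among 10607 tested. These counts are not split by size of change, and recovery of small changes was not tested separately. Members that did not pass the filter were compared by exact permutation over 252 splits. Relations between mice were fitted in edgeR on group and the measure, and r was tested with 100000 permutations. Promoters were searched with Python 3.11.15. Alternatives were DESeq2 1.42.0, other scalings and filters, all 35 mice in one fit, the replicate number as a block, and fits with 1 mouse removed.

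Full statistics are given for the 12 members with the largest called change against controls and for Insig1, Insig2, Srebf2 and Abca1, and the other members are described by role. From each other list the largest called rises and falls are named, except 1 gene that is not reported here. The members and lists were chosen with earlier results of these data known. Each replicate is 1 mouse.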

Additional observations from a re-analysis of the deposited data

Results flagged for a closer look

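Of 105 comparisons, each of 1 gene in 1 group, 11 held a mouse that stood far from the other 4. About 5.25 would do so by chance (1 in 20 groups). Fdft1 was low in cold 6 hours replicate 2 (3.01 CPM) and high in cold 1 day replicate 3 (5.21 CPM). Sqle was low in room temperature replicate 3 (0.436 CPM) and cold 1 day replicate 4 (1.28 CPM), and high in cold 5 days replicate 5 (10.2 CPM). Mvd was low in cold 3 days replicate 4 (4.44 CPM). Dhcr7 was low in replicate 5 of cold 1 day (4.38 CPM, 4.375 before rounding) and of cold 3 days (4.38 CPM, 4.381 before rounding). Cyp51 was high in cold 1 day replicate 3 (38.4 CPM). Srebf2 was low in cold 3 days replicate 1 (6.09 CPM) and high in cold 5 days replicate 1 (23.05 CPM).

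Effects of cold also differed between durations, by edgeR's test of the difference itself. From 6 hours to 1 day the log2 difference was 1.13 for Hmgcs1, 1.05 for Mvk, 1.20 for Mvd (1.195 before rounding), 0.87 for Nsdhl, 0.78 for Sc5d, 1.54 for Dhcr7, 0.81 for Insig1, -0.59 for Npc2, 0.58 for Abca1 and 1.52 for Abcg1. From 6 hours to 5 days it was 0.90 for Acat2, 0.79 for Hmgcs1, 1.16 for Mvk, 0.79 for Pmvk, 1.47 for Mvd, 0.82 for Lss, 0.79 for Cyp51, 0.45 for Msmo1, 2.32 for Nsdhl and 1.63 for Sc5d. Over the same span it was 2.27 for Dhcr7 (2.275 before rounding), 2.605 for Insig1, 1.03 for Tmem97 (1.035 before rounding), 1.28 for Soat1, 1.82 for Abcg1 (1.825 before rounding), -0.47 for Nr1h3 and -0.63 for Mylip.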

How the results depend on the processing

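Of 135 calls of members over the 8 comparisons, 107 held in every fit, 26 were lost in at least 1 fit that left out 1 mouse, and 18 in at least 1 other alternative, of which 14 were lost with library size only, 4 with the replicate block and 1 with DESeq2. Scaling by library size alone left 4 members higher at 6 hours (7 with TMM) and 6 lower at 2 days (2 with TMM). Without a filter 2 members were lower from 6 hours to 1 day (1 with it). Over fits that left out 1 mouse, the lower calls numbered 1 to 2 at 2 days, 2 to 4 at 3 days, 1 to 2 from 6 hours to 1 day and 1 to 3 from 6 hours to 5 days. With r and adjustment over 28 members, 7 were correlated positively and 0 negatively with Fasn, and 3 and 1 in the 20 mice of 2 to 5 days. With Spearman's rho 1 was negative with Fasn and 4 with the macrophage marker sum (1 with r). Leaving out 1 mouse gave 0 to 1 negative with Fasn, and 0 to 2 positive and 1 to 7 negative with the marker sum. In the fit over all genes it gave 1 to 5 negative with the marker sum, and 2 to 5 positive and 0 to 1 negative with Fasn. The cause of these differences was not tested.

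Same-numbered mice did not deviate together more than others did (r of -0.246 to 0.257 over 105 pairs, median -0.00756). Pairs with different numbers gave r of -0.306 to 0.337 over 420 pairs (median 0.00495). These r are taken over many genes, so they cannot tell whether the numbers mark a batch that touches few genes or few mice. With the replicate block as a term, the members higher and lower numbered 7 and 7 at 6 hours, 12 and 6 at 1 day, 15 and 2 at 2 days, 15 and 4 at 3 days, 15 and 5 at 4 days, 14 and 5 at 5 days, 8 and 1 from 6 hours to 1 day, and 15 and 2 from 6 hours to 5 days. Depth limits Idi1, Fdps, Sqle and Tm7sf2, where few reads lie behind a value.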
